A study of Mus musculus with 12 samples.

Results

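The cytosolic ribosomal protein genes were followed in the ageing mouse cochlea, the hearing organ of the inner ear. They were taken by symbol from the platform annotation: all probes named Rpl or Rps followed by a digit, and those of Rplp0, Rplp1, Rplp2 and Rpsa, without the Rps6k kinases and without symbols marked -ps. This gave 96 of the 45281 probes on the array, for 65 of 19057 genes with a single name. Each gene was represented by its brightest probe, and 59 of the 65 passed the filter on low levels described below. The samples were cochleae of C57BL6j mice at 4, 15 and 45 weeks of age, freed of the vestibular organs and kept in RNAlater before extraction of total RNA. The design text gives pools of 5, and the labels give pools a and b at each age, each run on 2 Illumina arrays, so that 12 arrays stand for 6 pools. No genotype, agent or treatment other than age is given, and all groups share the one strain, an inbred strain known for early loss of hearing at high frequencies. Each pool was taken as 1 replicate (n = 2 per age), and no label says whether the 5 were cochleae or mice.

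A cytosolic ribosome joins a small subunit, which holds the mRNA and reads its codons, to a large subunit, which makes the peptide bond and passes the new chain out through a tunnel. Each subunit is a core of ribosomal RNA with many proteins, most of them the product of 1 gene in mammals and needed in equal amounts. Their mRNAs are among the most abundant in any cell and mostly begin with a C followed by a run of pyrimidines, the terminal oligopyrimidine tract, through which mTOR signalling controls their translation. Mutation of single members harms particular tissues: in human, several underlie Diamond-Blackfan anaemia, and in mouse, loss of 1 copy of Rpl38 causes the Tail-short phenotype with middle ear disease.

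The start-site sequences of 7 members are shown because these were among the 8 with the smallest p on the higher side between 45 and 4 weeks, and they show how the tract varies between them. The eighth, Rpl30, had no entry. Each line has 30 bases from RefSeq (GRCm38.p6), 15 before and 15 after the annotated transcript start, and capitals mark a C followed by at least 5 bases that are C or T.
Rps16: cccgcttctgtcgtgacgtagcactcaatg
Rpl13a: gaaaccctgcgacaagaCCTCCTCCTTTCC
Rps27l: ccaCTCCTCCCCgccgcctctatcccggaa
Rplp2: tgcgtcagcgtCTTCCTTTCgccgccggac
Rps10: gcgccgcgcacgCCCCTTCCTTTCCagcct
Rps12: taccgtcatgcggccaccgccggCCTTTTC
Rps13: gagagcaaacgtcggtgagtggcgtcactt
The windows lie at chr7:28350674-28350703 on the plus strand (Rps16), chr7:45128731-45128760 on the minus strand (Rpl13a), chr9:66946071-66946100 on the plus strand (Rps27l, the first of 2 annotated starts), chr7:141447636-141447665 on the plus strand (Rplp2), chr17:27635230-27635259 on the minus strand (Rps10), chr10:23787195-23787224 on the minus strand (Rps12) and chr7:116334176-116334205 on the minus strand (Rps13). Each spans the annotated start, from the flank into the first exon. Within the window the runs of Rps10 and Rpl13a were 13 bases long, and Rps16 and Rps13 held none. The runs of Rpl13a and Rps12 reach the last base of the window, which cuts their length. The search read the strand of the transcript only. Of 54 members with an entry, 31 held such a run (57.4%), against 6883 of the 27025 genes in the table (25.5%). A run in the window is a description of these letters and does not show that a transcript begins there.

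All 12 arrays carried 1 distribution of log2 values, the mark of quantile normalization, with a median of 5.89 and a highest value of 15.00, so a level is a place on that shared scale and not a count of molecules. Probes with a mean level above 5.87 were tested, 22640 in all, covering 12595 genes. Of the markers of the cell types that the tissue could hold, 7 of 10 hair cell genes passed the filter (not Atoh1, Pou4f3 or Slc26a5), with pool means between 8.14 and 8.38. For supporting cells and fibrocytes 10 of 11 passed, for the stria vascularis 4 of 7 (not Kcnj10, Kcnq1 or Tyr), and their pool means spanned 9.75 to 9.90 and 10.86 to 11.31. Genes of tissues around the cochlea were also bright: 10 of 10 myeloid genes with pool means of 12.69 to 13.11, 9 of 9 bone genes at 9.22 to 10.45, 10 of 11 skeletal muscle genes at 8.49 to 10.70 and 7 of 10 erythroid genes at 10.65 to 10.95. Of the B and plasma cell genes 8 of 12 passed, at 7.72 to 8.48. Of the pituitary hormone genes 5 of 5 passed, with pool means of 8.59 and 9.07 at 45 weeks, against 5.64 to 6.02 at the younger ages. Ribosomal protein transcripts come from every one of these cells, and in such bulk RNA fewer cells of a type and less RNA per cell cannot be told apart.

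The chosen probes of the members read high on the array. These levels describe probes, each the brightest of its gene, and do not rank amounts of transcript. Their median level was 12.5 over all 65 genes and 12.9 over those past the filter, against 7.65 over all genes tested. Of the 226 probes that make up the top 0.5% of the array (levels of 13.0 and above), 28 were the chosen probes of members. Of the 38 genes at a level of 14 or more, 15 were members. The brightest probe was that of Rplp1, a protein of the acidic stalk that calls in elongation factors, whose mean level of 14.85 ranked 4 on the array. The probe of Rpl41, which encodes the smallest protein of the large subunit, followed at 14.81, then Rps24, a small-subunit protein mutated in human Diamond-Blackfan anaemia, at 14.66. The probe of Rps29 lay at 14.63 and that of Rpl38 at 14.62.

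These levels press against the top of the scale. Single arrays gave members readings as high as 15.00, the highest value that any probe had on any array, and 179 of the 780 readings of members were 14 or more, in 20 genes. Because every array was given the same distribution, a probe near the top has little room above it, and its difference between ages is bounded from above. At the other end 6 members did not pass the filter: Rpl17, Rpl6, Rps20, Rps23, the like-gene Rpl39l and Rps23rg1, with mean levels of 5.66 to 5.83. Their low readings do not show that the transcripts were rare, since probes of 1 member often differed by far more. Over the 22 members with several probes the median gap between the brightest and the dimmest was 3.49, and for Rps24 the probes spanned 5.53 to 14.66.

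**Figure D1:**
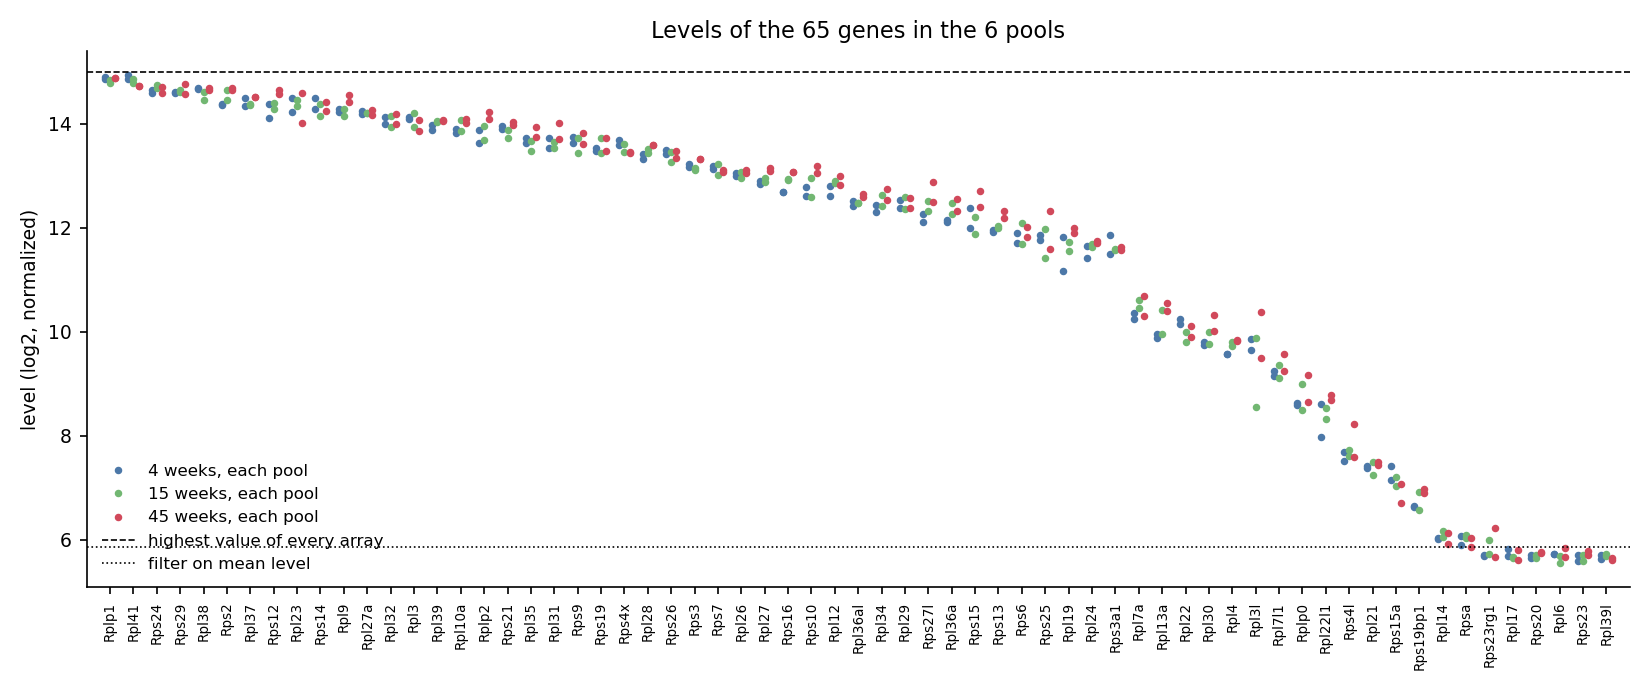
Level (log2, normalized) of each of the 65 genes on its brightest probe, ordered by mean level, with 1 point for each pool in the colour of its age. The dashed line is the highest value of every array (15.00) and the dotted line the filter (5.87). Most genes lie above 11, with 15 at 14 or more, and 6 lie below the filter.

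Both subunits were represented, but not in full: Rpl5, Rpl11, Rpl23a and Rps27a, for example, had no probe under the rule. The large subunit had 33 genes at a median probe level of 13.0, of which 31 passed the filter, and the small subunit 23 genes at 13.1, of which 21 passed. A further 7 were paralogs (like-genes) at a median of 9.28. Rps19bp1, which encodes a nucleolar partner of Rps19, and Rps23rg1, a retrogene of Rps23, match the symbol rule but are not ribosomal proteins. The median range of a tested member over the 6 pools was 0.36 log2 units, and for 44 of 59 it was under 0.5. At a level of 14 or more the median range was 0.24 for members and 0.25 for all genes. In that order it was 0.35 and 0.44 at 12 to 14, 0.45 and 0.49 at 9 to 12, and 0.54 and 0.40 below 9. The 2 arrays of a pool differed by a median of 0.13. One log2 unit is a 2-fold difference.

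Between 45 and 4 weeks most members had slightly higher values at 45 weeks, and no single gene passed the test. The median log2 difference of the 59 genes was 0.16, against -0.02 over all genes tested, and 46 of 59 lay above 0 (78%, against 47.1% of all genes). No member was called by limma at an adjusted p under 0.05, and neither was any probe on the array (0% of 22640), the smallest adjusted p of a member being 0.275. At an unadjusted p under 0.05, 9 members were higher and 0 lower, against 6.84% and 8.92% of all genes. Both pools at 45 weeks lay above both at 4 weeks for 32 members (54.2%, against 21.6% of all genes) and below for 6 (10.2%, against 25.4%). The differences were small: 34 of 59 were within 0.2 log2 units, and the median standard error was 0.13.

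**Figure D2:**
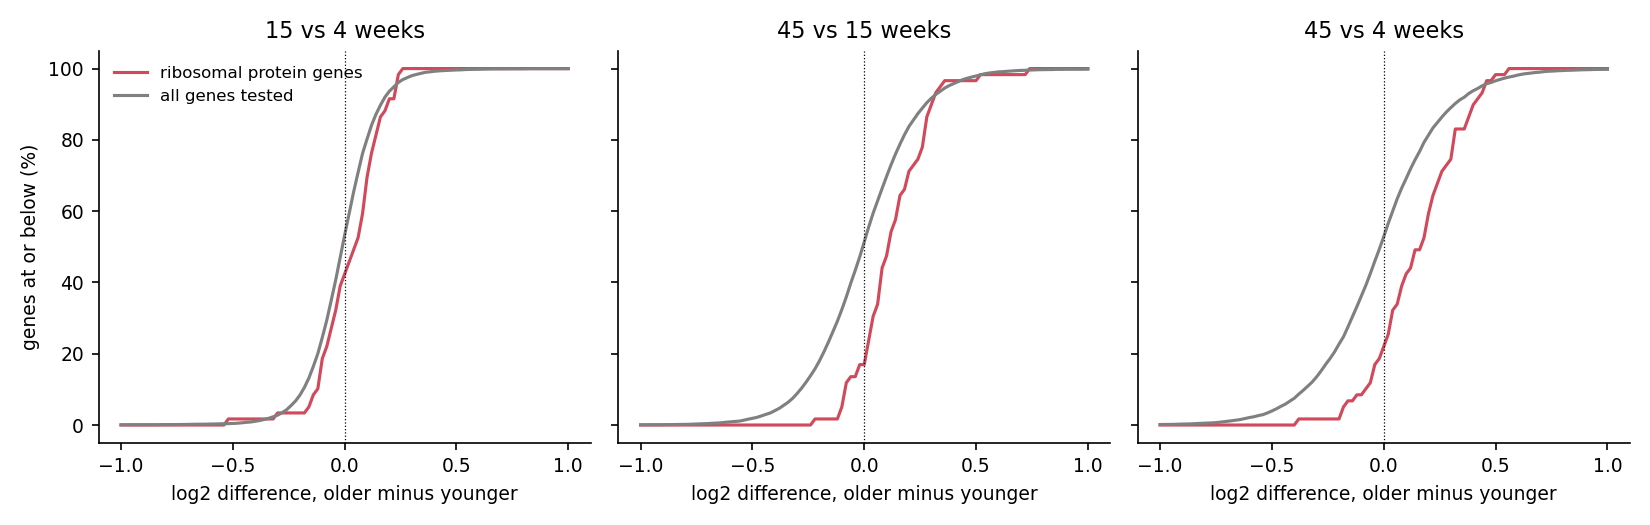
Share of genes (%) at or below each log2 difference, older minus younger age, for the 59 ribosomal protein genes past the filter and for all 12595 genes tested, in the 3 comparisons. The line of the ribosomal protein genes lies to the right of that of all genes at the medians of 0.05, 0.11 and 0.16, with all genes at -0.01, -0.01 and -0.02.

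The average over the 59 genes shows how small the shift was. In the order of pools a and b it was 12.07 and 12.11 at 4 weeks, 12.05 and 12.17 at 15 weeks, and 12.27 and 12.20 at 45 weeks. Both pools at 45 weeks stood above all 4 younger pools, but the second 15-week pool was closer to the 45-week pools than to the other pool of its own age. Singly, 19 members had both 45-week pools above all 4 younger pools (against 13.3% of all genes). The median was 0.19 in the large subunit, with 25 of 31 above 0, and 0.08 in the small subunit, with 14 of 21 above 0. The difference between subunits was not tested.

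The stalk of the large subunit is built of Rplp0, which anchors it, and the acidic proteins Rplp1 and Rplp2, which bind the elongation factors. For Rplp2 the pools read 13.62 and 13.87 at 4 weeks, 13.68 and 13.95 at 15 weeks, and 14.09 and 14.23 at 45 weeks. The 45-week pools were the highest of the 6, with a log2 difference of 0.41 ± 0.15 from 4 weeks (SE, n = 2 pools each, limma adjusted p = 0.315). The arrays of the second 4-week pool differed by 0.56, more than that. Rplp1 read 14.89 and 14.85 at 4 weeks, 14.78 and 14.84 at 15 weeks, and 14.88 and 14.87 at 45 weeks, flat at the top of the scale. Rplp0, often used as a reference transcript, varied more, with 8.63 and 8.59 at 4 weeks, 8.50 and 8.99 at 15 weeks, and 9.16 and 8.65 at 45 weeks. Its difference of 0.30 ± 0.22 between 45 and 4 weeks came with a second 45-week pool that was level with the 4-week pools. A dimmer Rplp0 probe at 6.63 gave 0.01.

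Other members line the exit tunnel or surround its mouth. Of 9 such genes on the list, 7 passed the filter, and 6 of these were above 0 between 45 and 4 weeks, with a median of 0.16, as over all tested members. Rpl4, which reaches into the tunnel, read 9.57 and 9.57 at 4 weeks, 9.79 and 9.72 at 15 weeks, and 9.83 and 9.82 at 45 weeks. Its pools of 1 age nearly coincided and the ages followed in order, with a difference of 0.25 ± 0.11 between 45 and 4 weeks (limma adjusted p = 0.380). The arrays of the second 4-week pool differed by 0.32, more than that. A dimmer Rpl4 probe at 6.14 gave 0.11 between 45 and 4 weeks, with 4-week pools apart at 5.89 and 6.32. Rpl19 differed by 0.45 ± 0.21 between the same ages, but its 4-week pools lay far apart, at 11.17 and 11.82. Rpl31, at the mouth of the tunnel, gave 0.24 ± 0.15, Rpl35 0.16 ± 0.13, Rpl39 0.13 ± 0.11 and Rpl26 0.05 ± 0.11. Rpl22 was the one below 0, at -0.18 ± 0.14.

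Elsewhere in the large subunit, Rpl13a had the largest difference of any tested member between 45 and 4 weeks on the chosen probes. Rpl13a, which in human myeloid cells also leaves the ribosome to silence inflammatory mRNAs, read 9.88 and 9.96 at 4 weeks, 9.95 and 10.41 at 15 weeks, and 10.54 and 10.39 at 45 weeks. The second 15-week pool was as high as the 45-week pools and the first as low as the 4-week pools, so the 15-week pools reached from one age to the other. The difference between 45 and 4 weeks was 0.55 ± 0.17 (limma adjusted p = 0.288). Rpl30, known in yeast for binding its own transcript, read 9.74 and 9.80 at 4 weeks, 9.98 and 9.77 at 15 weeks, and 10.01 and 10.32 at 45 weeks, a difference of 0.40 ± 0.15 between 45 and 4 weeks (adjusted p = 0.325). Its 45-week pools were the highest of the 6, although the first of them barely exceeded a 15-week pool. A dimmer Rpl30 probe at 6.91 gave 0.41 between 45 and 4 weeks.

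In the small subunit, Rps16 had the smallest p of all tested members between 45 and 4 weeks, and its pools of 1 age were closely matched. Rps16, whose tail reaches the tRNA in the ribosome's P site, read 12.69 and 12.69 at 4 weeks, 12.93 and 12.91 at 15 weeks, and 13.07 and 13.08 at 45 weeks. The 3 ages did not overlap, although at 15 weeks single arrays of 1 pool differed by 0.32, more than neighbouring ages did. The log2 difference was 0.39 ± 0.11 between 45 and 4 weeks (limma adjusted p = 0.275), 0.15 ± 0.11 between 45 and 15 weeks (0.708) and 0.23 ± 0.11 between 15 and 4 weeks (1.00).

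Rps10, Rps12 and Rps13 had the same order, with their 45-week pools above all others. Rps10, a Diamond-Blackfan gene in human, read 12.60 and 12.77 at 4 weeks, 12.60 and 12.96 at 15 weeks, and 13.18 and 13.05 at 45 weeks. Rps12, a protein of the small-subunit head, read 14.11 and 14.37 at 4 weeks, 14.28 and 14.40 at 15 weeks, and 14.56 and 14.64 at 45 weeks. Rps13, which helps to bridge the subunits, averaged 11.94 at 4 weeks, 12.02 at 15 weeks and 12.25 at 45 weeks, with its 45-week pools at 12.32 and 12.18. The differences between 45 and 4 weeks were 0.43 ± 0.16, 0.36 ± 0.13 and 0.31 ± 0.12 in that order, with limma adjusted p-values of 0.317, 0.319 and 0.322. A dimmer Rps13 probe at 6.74 gave only 0.03 between these ages.

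Rps2, Rps3, Rps15 and Rps23 help to form the mRNA channel and the decoding site. The first 3 passed the filter and were all above 0 between 45 and 4 weeks. Rps2 read 14.36 and 14.37 at 4 weeks, 14.45 and 14.65 at 15 weeks, and 14.69 and 14.64 at 45 weeks, a difference of 0.30 ± 0.12 between 45 and 4 weeks (adjusted p = 0.348). Its 45-week pools were above both 4-week pools but not clear of the second 15-week pool. Rps3 differed by 0.12 ± 0.11 and Rps15 by 0.37 ± 0.19. The 10 tested Diamond-Blackfan genes had a median of 0.08, with 8 above 0. Rps19, the first of that list to be tied to the disease, differed by 0.10 ± 0.15. Rps6, the substrate of S6 kinase downstream of mTOR, read 11.89 and 11.70 at 4 weeks, 12.08 and 11.68 at 15 weeks, and 11.82 and 12.01 at 45 weeks, with all ages overlapping, and the 2 arrays of 1 pool were 0.80 apart. Rpsa, which also serves as a laminin receptor, had only dim probes (pools at 5.87 to 6.10) and a difference of -0.03 ± 0.13.

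**Figure D3:**
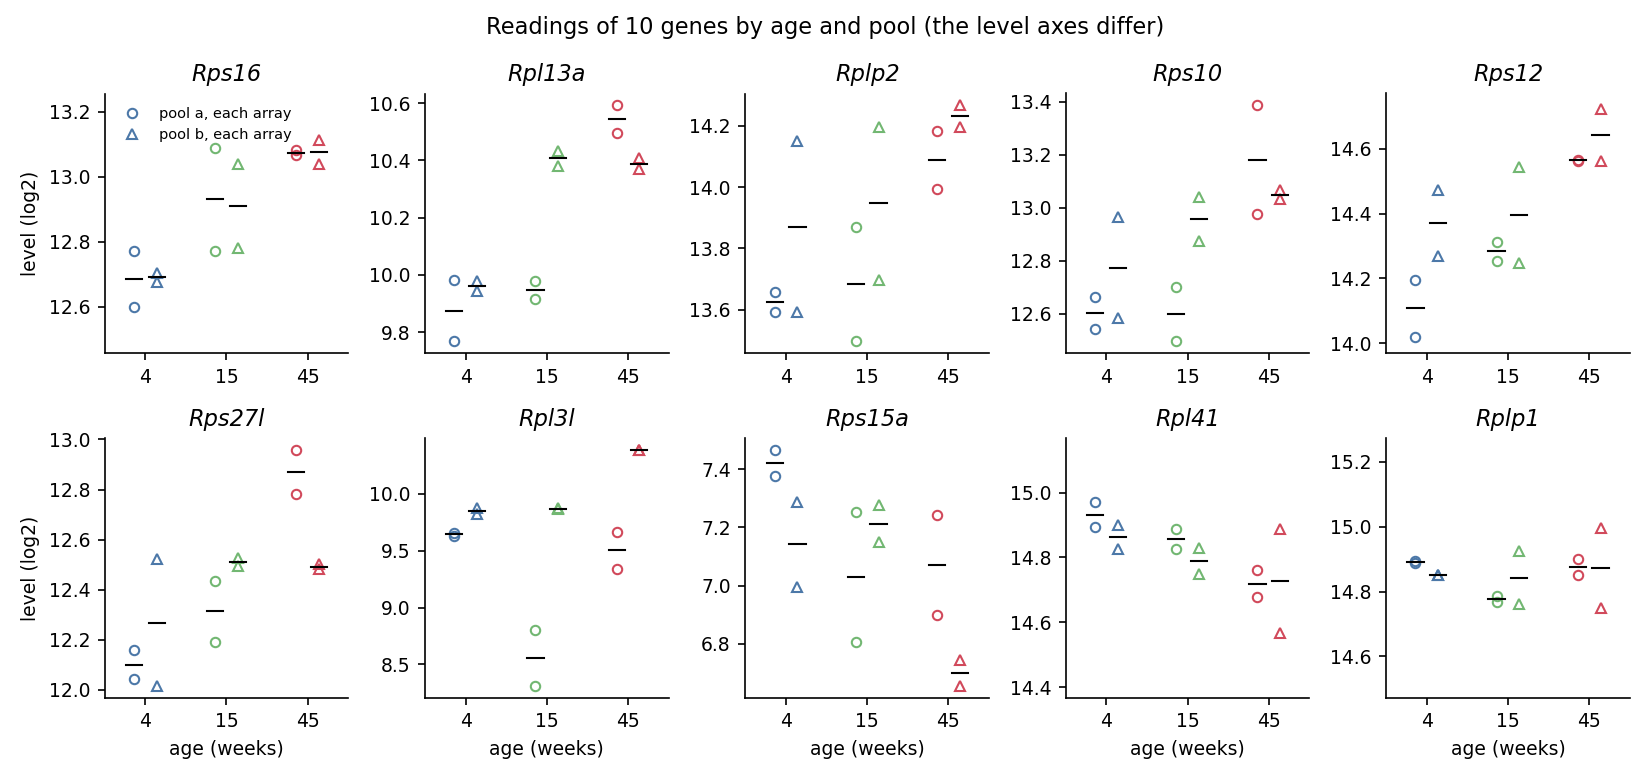
Readings (log2) of 10 genes at 4, 15 and 45 weeks, with circles for the arrays of pool a, triangles for those of pool b and a bar at each pool mean. The level axes differ. For Rps16 the pool means of the 3 ages do not overlap, Rpl3l has 1 low pool at 15 weeks (8.56), and Rplp1 stays between 14.78 and 14.89.

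Of the 13 members below 0 between 45 and 4 weeks, the pools did not overlap for 6: Rps15a, Rps4x, Rpl41, Rpl22, Rpl3 and Rps7. The largest difference was that of Rps15a, a small-subunit protein, which read 7.42 and 7.14 at 4 weeks, 7.03 and 7.21 at 15 weeks, and 7.07 and 6.70 at 45 weeks. The gap between its pools of 1 age was about the size of the difference of -0.40 ± 0.17 (limma adjusted p = 0.376). Rps4x, the X-linked copy of its gene, read 13.69 and 13.59 at 4 weeks, 13.61 and 13.45 at 15 weeks, and 13.43 and 13.46 at 45 weeks, a difference of -0.19 ± 0.12 between 45 and 4 weeks. Rpl41 read 14.93 and 14.86 at 4 weeks, 14.86 and 14.79 at 15 weeks, and 14.72 and 14.73 at 45 weeks, a difference of -0.18 ± 0.11 with an adjusted p of 0.520. The 45-week pools of Rpl41 were the lowest of the 6, whereas for Rps4x a 15-week pool lay between them. Rpl3, which lies near the peptidyl transferase centre, gave -0.14 ± 0.14 and Rps7 -0.07 ± 0.12.

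The like-genes are paralogs of core proteins, some of which can replace the core protein in some cells, and 6 of 7 passed the filter. Together with Rps19bp1 they had a median of 0.31 between 45 and 4 weeks, and 7 of 7 lay above 0. With these left out, the 52 core genes had a median of 0.12 and 39 above 0. Rps27l, a target of p53, read 12.10 and 12.27 at 4 weeks, 12.31 and 12.51 at 15 weeks, and 12.87 and 12.49 at 45 weeks. Its 45-week pools were both above the 4-week pools, by a difference of 0.50 ± 0.16 (adjusted p = 0.293), but the second was level with a 15-week pool. Rpl22l1, the paralog of Rpl22 that in mouse is held down by Rpl22 itself, read 7.97 and 8.60 at 4 weeks, 8.53 and 8.32 at 15 weeks, and 8.77 and 8.68 at 45 weeks. It differed by 0.44 ± 0.21 between 45 and 4 weeks, whereas Rpl22 read 10.15 and 10.24 at 4 weeks, 9.80 and 9.99 at 15 weeks, and 10.12 and 9.90 at 45 weeks. Whether the paralogs differ in their change was not tested.

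Rpl3l, the paralog of Rpl3 made in skeletal muscle and heart, varied most of all members. It read 9.64 and 9.85 at 4 weeks, 8.56 and 9.87 at 15 weeks, and 9.50 and 10.38 at 45 weeks. The skeletal muscle markers had pool means of 9.57 and 10.50 at 4 weeks, 8.49 and 10.05 at 15 weeks, and 9.37 and 10.70 at 45 weeks. In both series pool b was above pool a at each age and the first 15-week pool was the lowest, and the part of muscle in the level of Rpl3l was not tested. The widest differences of tested members between 45 and 15 weeks (0.73 ± 0.44) and between 15 and 4 weeks (-0.53 ± 0.44) were those of Rpl3l. The SE of Rpl3l was also the largest, and between 45 and 4 weeks the gene differed by 0.20 ± 0.44. Rps4l had the widest gap between the 2 arrays of a pool, 0.93, and differed by 0.31 ± 0.21 between 45 and 4 weeks. Rpl7l1, which acts in assembly of the large subunit, gave 0.22 ± 0.16, Rpl36al 0.16 ± 0.11 and Rps19bp1 0.31 ± 0.15. A dimmer Rpl7l1 probe at 6.55 gave -0.08 between the same ages.

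Between 45 and 15 weeks the members again lay mostly above 0, by less. The median was 0.11, against -0.01 over all genes tested, and 49 of 59 were above 0 (83.1%, against 48.7% of all genes). No member and no probe was called (0% of 22640), and 1 member was higher at an unadjusted p under 0.05 (limma), against 4.31% of genes, and 0 were lower, against 4.81%. Both 45-week pools lay above both 15-week pools for 22 members (37.3%, against 20.2%) and below for 1 (1.69%, against 21.6%). This median rested on which pool stood for an age: it was 0.05 without the first 15-week pool, 0.18 without the second, and 0.06 without the first 45-week pool. The gene at a small unadjusted p was Rps15, a protein of the decoding site, with 12.40 and 12.70 at 45 weeks, against 11.88 and 12.20 at 15 weeks. Both 45-week pools were above both 15-week pools, although a 4-week pool at 12.38 was level with the lower of them, and the difference was 0.51 ± 0.19 (adjusted p = 0.606). Rplp2 gave 0.34 ± 0.15, Rps10 0.34 ± 0.16 and Rpl35 0.28 ± 0.13. Rpl9, which sits near the base of the stalk, read 14.42 and 14.55 at 45 weeks, against 14.15 and 14.28 at 15 weeks, a difference of 0.27 ± 0.12 on a probe whose paired arrays differed by at most 0.07. Of the exit tunnel list 7 of 7 were above 0, and of the stalk 3 of 3. The lowest were Rps15a at -0.24 ± 0.17 and Rpsa at -0.11 ± 0.13.

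Between 15 and 4 weeks the members lay on both sides of 0. The median was 0.05, against -0.01 over all genes, and 34 of 59 were above 0 (57.6%, against 46.7%). Without the second 15-week pool the median was -0.01, and without the first 4-week pool 0.003. No member and no probe was called (0% of 22640). At an unadjusted p under 0.05 (limma) there were 0 members in either direction, against 0.603% of genes higher and 0.905% lower. Both 15-week pools lay above both 4-week pools for 13 members (22%, against 11.4%) and below for 6 (10.2%, against 14.7%), and 52 of 59 differences were within 0.2. The lowest p on the higher side was that of Rps16 (0.23 ± 0.11), followed by Rpl36a at 0.23 ± 0.14 and Rpl4 at 0.18 ± 0.11. On the lower side Rpl22 read 9.80 and 9.99 at 15 weeks, against 10.15 and 10.24 at 4 weeks, a difference of -0.30 ± 0.14, but the 2 arrays of 1 of its 15-week pools were 0.70 apart. Rpl38 followed at -0.15 ± 0.12. The comparisons share pools with each other, so a pool that stands high or low enters 2 of them.

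The differences between 45 and 4 weeks were also grouped by the level of the probe, with no test between the groups. Members at a level of 14 or more had a median of 0.02 (15 genes), against 0.20 at 12 to 14 (24 genes), 0.20 at 9 to 12 (12 genes) and 0.18 below 9 (8 genes). Over all genes the medians of these classes, which were set after the values were seen, were -0.03, -0.07, -0.04 and -0.01. When the members whose probes lay in the top 0.5% were left out, the median between 45 and 4 weeks was 0.25, against 0.16 over all tested members.

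Different probes annotated to 1 gene were also set side by side. In 18 members with several tested probes, 25 pairs of the brightest with a dimmer probe could be formed, and 22 pairs had the same sign. In 6 of these genes the brightest probe was at 14 or more. Its difference between 45 and 4 weeks had a median of 0.00 over their 11 pairs, and that of the dimmer probes was 0.23, with the dimmer larger in 7 of 11. Over all 25 pairs, whatever the level of the brightest probe, the dimmer was larger in 15, a similar share. Pairs of 1 gene share its brightest probe, so they are not independent. Rpl23, Rpl27a and Rps24 each gave more than 1 pair, and the median of 0.00 is the value of Rpl27a. The genes below were picked after these values were seen. Rps24 gave 0.02 on its probe at 14.66, 0.44 on a probe at 8.35 and 0.16 on one at 6.59. Rpl38 gave -0.02 on its probe at 14.62 and 0.30 on one at 8.99. Rpl27a gave 0.00 at 14.21, 0.34 at 11.98, 0.35 at 10.17 and 0.03 at 6.32. In each of these the difference was near 0 on the probe close to the top of the scale and positive on a dimmer one. The dimmest probe of Rpl27a was also near 0.

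Other genes went against that order. Rps2 gave 0.30 at 14.53 and 0.15 at 13.38, and Rps12 gave 0.36 at 14.39 and 0.23 at 14.21, so bright probes could differ by as much as dim ones. Rpl23 gave -0.05 at 14.35, -0.22 at 14.06, 0.40 at 8.62 and -0.05 at 6.21, with both signs on 1 gene. Rpl29, below the brightest class, gave 0.02 at 12.47 and 0.59 at 9.07. Ribosomal protein genes have many processed pseudogenes of near-identical sequence, the probes' own sequences were not used here, and which copies a probe reads was not tested. How much of the pattern comes from the top of the scale was not tested.

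**Figure D4:**
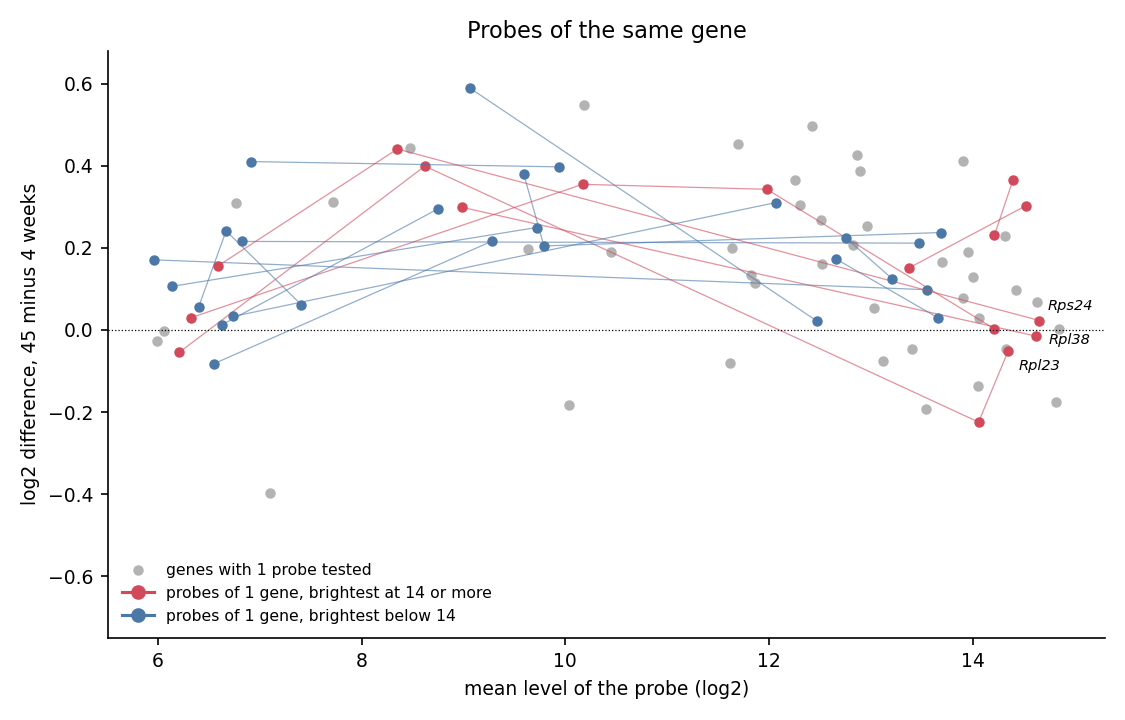
Log2 difference between 45 and 4 weeks of each tested probe of a member against the mean level of the probe, with lines joining probes of 1 gene (red where the brightest is at 14 or more, blue below) and grey points for genes with 1 tested probe. Rps24, Rpl38 and Rpl23 are marked at their brightest probes, which lie at differences of 0.02, -0.02 and -0.05, with dimmer probes as high as 0.44.

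The members were also split by the pyrimidine run at the start site, and the difference between the groups was not tested. The 27 tested members with a run in the window had a median of 0.19 between 45 and 4 weeks, with 23 above 0, and the 23 without one had a median of 0.16, with 16 above 0.

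Other genes of translation had medians near or below 0 between 45 and 4 weeks. The median was -0.09 over 34 initiation factors (10 above 0), -0.03 over 11 elongation and release factors (4 above 0), 0.01 over 37 genes of ribosome biogenesis (19 above 0) and -0.02 over 15 other genes known for a terminal oligopyrimidine tract (7 above 0), some of which are also on the factor lists. No gene of these lists was called, and at an unadjusted p under 0.05 (limma) they held 2, 1, 4 and 2 higher and 2, 0, 3 and 1 lower genes in that order. The largest differences in the biogenesis list were those of Nhp2 (0.58 ± 0.13) and Nop10 (0.56 ± 0.13), partners in the particle that modifies ribosomal RNA, and on the other side Nop14 (-0.46 ± 0.12), which acts in small-subunit assembly, and Polr1a (-0.43 ± 0.14), the largest subunit of RNA polymerase I. Among the factors Eif4e2, which binds the mRNA cap, gave 0.52 ± 0.15, Eef1e1 0.50 ± 0.13 and Eif4b, a helper of the initiation helicase, -0.32 ± 0.13. Tpt1, one of the genes with a known tract, gave 0.43 ± 0.11. The adjusted p-values of these 8 genes were 0.271 to 0.343.

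The mitochondrial ribosomal proteins, which serve a separate ribosome, had larger medians than the cytosolic ones in both comparisons with 45 weeks but not between 15 and 4 weeks. Over 72 genes the median was 0.29 between 45 and 4 weeks, 0.26 between 45 and 15 weeks and 0.04 between 15 and 4 weeks, with 62, 65 and 46 above 0, and none was called by limma in any of the 3 (31 higher and 0 lower at an unadjusted p under 0.05 between 45 and 4 weeks). The difference between the groups of genes was not tested. Beside these shifts the proliferation markers had pool means of 9.48 and 9.14 at 45 weeks, against 9.37 and 9.27 at 4 weeks, and the pituitary genes stood high in both 45-week pools. The bone markers had pool means of 9.78 and 9.22 at 4 weeks, 9.30 and 10.45 at 15 weeks, and 10.08 and 10.16 at 45 weeks. Both 45-week pools were above both 4-week pools for bone, as for the mean of the members, and in both the first 15-week pool was lower than the second. The part of these markers in the members' differences was not tested.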

How the data were processed

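Values were the authors' deposited log2 levels, normalized between arrays before deposit: the sorted columns of the 12 arrays were identical. Background correction and software: not given in the sources used here. A second deposited table, with 24 columns named unlike any sample, was not used, so detection above background and saturation of the scanner were not assessed. Probes were named from the platform annotation (1 symbol for 34885 probes, several for 18, none for 10378).

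The 2 arrays of a pool were averaged. Probes with a mean level above 5.87 entered 1 limma model of the 3 ages (version 3.58.1, R 4.3.3; lmFit, then contrasts.fit and eBayes; 3 residual and 3.84 prior degrees of freedom). Adjusted p-values are Benjamini-Hochberg over all 22640 probes, with 0.05 as threshold. SE is the moderated standard error. The fit was tested on simulated data. The labels do not say that pools came from separate mice, so p-values measure the spread between these pools, moderated by a prior from all tested probes. For closely matched pools the prior sets most of the SE: those of Rps16 had an SD of at most 0.014 within an age, against an SE of 0.11. The 6 pools limit the precision. Counts over members are descriptions, not tests.

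Named members were the 8 higher and 8 lower of smallest p in each comparison, the 5 brightest, the 5 dimmest, the 5 with the widest gap between arrays, and fixed role groups. For other translation lists the 2 higher and 2 lower of smallest p were eligible. The members and lists were chosen with earlier results of these data known. Genes of the role lists with no probe under the rule, such as Rpl5, Rpl11, Rpl23a, Rps27a and the paralogs Rpl10l and Rps27rt, were not analysed here. Start sites came from RefSeq tables (GRCm38.p6).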

Additional observations from a re-analysis of the deposited data

How the results depend on the processing

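No member was called in any of the 3 comparisons under any of 18 alternatives, which covered the filter, single technical arrays, all 12 arrays blocked on their pool (correlation 0.296), the replicate block, each pool left out, the choice of probe and the fit. The lowest adjusted p of any named member was 0.0669. Of 2058 values for 46 named members, 1952 kept direction and side of the threshold and 106 changed sign without being called. The median of the members between 45 and 4 weeks was 0.249 without those in the top 0.5% of levels, against 0.160 with them, by construction a set with fewer bright probes. With 1 pool of either age left out, it ranged from 0.120 to 0.138 between 45 and 4 weeks. It stayed at 0.160 without a 15-week pool, since those pools do not enter that comparison. With 1 pool left out, the median ranged from 0.0523 to 0.177 between 45 and 15 weeks, and from -0.00566 to 0.0922 between 15 and 4 weeks. In these fits the lone pool of an age is assumed to vary like the others. With the replicate block on the letters a and b, 0 members were called. The medians stayed at 0.160, 0.111 and 0.0474, which this block cannot change because each age has 1 pool of each letter. Deviations of same-lettered pools correlated at 0.183, -0.388 and -0.112 for 45 against 4, 45 against 15 and 15 against 4 weeks. With so few pools these values cannot decide whether the letters pair the pools. The skeletal muscle markers and Rpl3l were higher in pool b than in pool a at each age. With 2 pools per age, differences near the median standard error of 0.134 were not detectable. Differences well above it also went uncalled, such as 0.55 ± 0.17 for Rpl13a between 45 and 4 weeks.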
